A study of Mus musculus with 16 samples.

Results

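The 10 genes described here are Fos, Fosb, Jun, Junb, Egr1, Atf3, Ier2, Ier3, Dusp1 and Nr4a1, a set of immediate early genes taken by symbol from a deposited expression table of 18929 genes. All 10 were present, and all 10 passed the filter on low values as did 12850 genes of the table in all. RNA was sequenced from 16 B16F10 tumors, 4 in each of 4 groups, each tumor from its own mouse. B16F10 is a mouse melanoma cell line, here grown from cells injected on the right side of the abdomen, and the hosts were C57BL/6 females aged 7 to 8 weeks, in groups of 6. The vehicle group (Vehicle) was given corn oil and an IgG isotype control, the anti-PD1 group (PD1mAb) received a PD1 mAb, the α-KG group (alpha_KG) received α-ketoglutarate at 100 mg/kg, and the α-KG + anti-PD1 group (aKG_PD1mAb), below the combination group, received both, all by intraperitoneal injection for 9 to 11 days.

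Immediate early genes are transcribed within minutes of a stimulus, without the need for new protein synthesis, when MAP kinase, calcium or stress signals reach transcription factors that are already bound at their promoters. Their messenger RNAs are short-lived, so a level reflects the state of the cells shortly before the RNA was preserved. Growth factors, cytokines and adhesion induce them in many cell types, and so do cutting, warming and dissociating a tissue. For this reason each gene was examined for differences between treatments, for its relation to leukocyte markers and for single tumors that stood apart. The interval between the removal of a tumor and the lysis of its tissue is not given in the sources used here.

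The values are FPKM, fragment counts divided by transcript length and by library size, and no read counts were used, so the depth behind each value is unknown. They summed to between 514180 and 654772 per tumor, lowest in the combination group. Melanocyte markers were high in every tumor (score 9.17 to 9.61, a score being the mean log2(FPKM + 1) of a list), as the label of the tumors requires. The 8 skeletal muscle markers summed to 61.6 to 790 FPKM in the vehicle tumors, 2.87 to 4.81 in the anti-PD1 and α-KG tumors and 4.69 to 80.6 in the combination tumors, and the 6 red cell markers were lowest in the combination tumors. Keratinocyte markers summed to 0.800 FPKM or less. In bulk tissue, fewer cells of a type and less RNA per cell cannot be told apart. The vehicle tumors thus differed from the anti-PD1 and α-KG tumors in muscle RNA as well as in treatment. The part of muscle RNA in the comparisons with vehicle was not tested.

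The largest change was that of Dusp1, which was 11.3-fold higher in α-KG tumors than in vehicle tumors, followed by Junb at 4.09-fold and Egr1 at 2.83-fold. Atf3 rose by a smaller amount, 1.74-fold. In the combination tumors the same 4 genes and Ier2 were above vehicle, by 1.32-fold to 2.32-fold, and Ier3 was below it. Fos, Fosb, Jun and Nr4a1 passed the test in no comparison. The test was limma's moderated test on log2(FPKM + 1), with Benjamini-Hochberg adjustment over the 12850 genes, and a difference was called at an adjusted p under 0.05.

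**Figure D1:**
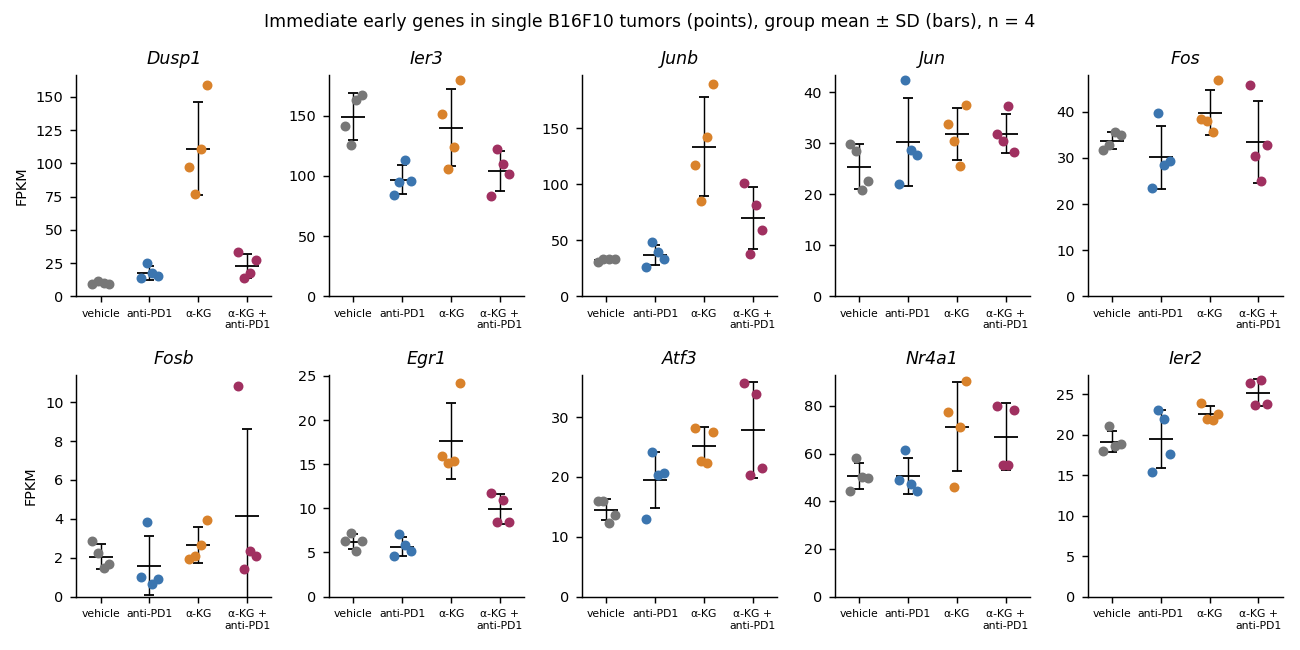
FPKM of each of the 10 genes (vertical axes, each from 0) in the 16 tumors, by treatment group (horizontal axes). Points are tumors and bars are the group mean ± SD (n = 4), and the α-KG tumors stand above all others for Dusp1 and Egr1, with Dusp1 between 77.0 and 159 FPKM.

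Dusp1 (Gene ID 19252) encodes a phosphatase that switches off the MAP kinases p38, JNK and ERK, and so limits the signal that induces it. It measured 8.84, 11.7, 9.88 and 9.07 FPKM in the vehicle tumors and 13.7, 25.1, 17.1 and 15.0 FPKM in the anti-PD1 tumors. In the α-KG tumors it measured 97.3, 77.0, 111 and 159 FPKM, and in the combination tumors 33.1, 13.4, 17.6 and 27.5 FPKM. The α-KG tumors were above all 12 other tumors, and all anti-PD1 and combination tumors were above all vehicle tumors, while the anti-PD1 and combination groups overlapped. The means were 9.87 ± 1.28, 17.7 ± 5.12, 111 ± 35.0 and 22.9 ± 9.02 FPKM (SD, n = 4) in the order vehicle, anti-PD1, α-KG and combination. The difference of α-KG from vehicle was 3.32 on the log2(FPKM + 1) scale (standard error 0.26, adjusted p = 3.46e-07).

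Junb (16477) encodes a JUN family subunit of the AP-1 transcription factor. Its vehicle values were 30.5, 33.3, 33.3 and 33.7 FPKM and its anti-PD1 values were 26.3, 48.1, 39.8 and 33.4 FPKM. Its α-KG values were 117, 85.2, 142 and 190 FPKM and its combination values were 101, 38.1, 81.6 and 59.1 FPKM. All α-KG and combination tumors were above all vehicle tumors, but the α-KG and combination groups overlapped, since the highest combination tumor was above the lowest α-KG tumor. The vehicle tumors differed little from each other (32.7 ± 1.45 FPKM, SD, n = 4), whereas the α-KG tumors spread widely (134 ± 44.2).

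Fos (14281), Fosb (14282) and Jun (16476) encode the other AP-1 subunits of the set. Fos measured 31.7, 32.7, 35.6 and 34.96 FPKM in the vehicle tumors, 23.4, 39.7, 28.4 and 29.3 FPKM in the anti-PD1 tumors, 38.5, 38.1, 35.6 and 46.9 FPKM in the α-KG tumors and 45.8, 30.3, 25.1 and 32.7 FPKM in the combination tumors. The 4 α-KG tumors were all above the vehicle tumors for Fos, by a narrow margin at the edge (35.61 against 35.58 FPKM), and the difference did not pass (0.23, 95% confidence interval -0.12 to 0.57, adjusted p = 0.379). Fosb was the least abundant of the 10 genes in every group mean. It measured 2.86, 2.22, 1.45 and 1.69 FPKM in the vehicle tumors, 0.99, 3.83, 0.63 and 0.92 in the anti-PD1 tumors, 1.94, 2.08, 2.67 and 3.96 in the α-KG tumors and 10.85, 1.40, 2.33 and 2.08 in the combination tumors, so that 1 tumor of each antibody-treated group was far above the rest. For Jun all groups overlapped. Its values were 29.8, 28.4, 20.8 and 22.5 FPKM for vehicle, 22.0, 42.4, 28.8 and 27.7 for anti-PD1, 33.8, 30.4, 25.5 and 37.4 for α-KG and 31.7, 30.3, 37.2 and 28.3 for the combination.

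Egr1 (13653) encodes a zinc finger transcription factor induced by growth factors through serum response elements. It measured 6.25, 7.24, 5.13 and 6.31 FPKM in the vehicle tumors and 4.55, 7.06, 5.89 and 5.17 in the anti-PD1 tumors. The α-KG tumors reached 15.9, 15.1, 15.4 and 24.2 FPKM and the combination tumors 11.7, 8.49, 11.0 and 8.42 FPKM. The means were 6.23 ± 0.863, 5.67 ± 1.08, 17.6 ± 4.35 and 9.90 ± 1.69 FPKM (SD, n = 4) in the same order of groups. The groups formed 3 tiers without overlap, with α-KG highest, the combination next, and vehicle and anti-PD1 together at the bottom.

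Atf3 (11910), a stress-induced factor of the ATF/CREB family, measured 16.1, 15.9, 12.4 and 13.7 FPKM in the vehicle tumors, 12.96, 24.2, 20.4 and 20.7 in the anti-PD1 tumors, 28.3, 22.7, 22.4 and 27.6 in the α-KG tumors and 35.7, 20.4, 33.9 and 21.5 in the combination tumors. Both groups given α-KG were above vehicle without overlap, and they overlapped with each other. Nr4a1 (15370), an orphan nuclear receptor, measured 44.4, 58.1, 50.3 and 49.7 FPKM for vehicle, 49.0, 61.4, 47.1 and 44.5 for anti-PD1, 77.5, 45.9, 71.3 and 90.7 for α-KG and 80.2, 55.3, 55.1 and 78.1 for the combination. Each pair of groups overlapped for Nr4a1, and 3 of the 4 α-KG tumors were above all vehicle tumors.

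Ier2 (15936) encodes a short-lived nuclear protein and had the smallest SD within groups of the 10 genes on the log2(FPKM + 1) scale (0.147). It measured 18.04, 21.0, 18.6 and 18.8 FPKM for vehicle, 15.4, 23.0, 21.9 and 17.6 for anti-PD1, 23.9, 22.0, 21.9 and 22.6 for α-KG and 26.5, 23.7, 26.8 and 23.8 for the combination. Ier3 (15937), a stress-inducible gene linked to cell survival, was the most abundant of the 10 in the vehicle tumors, at 141, 125, 163 and 167 FPKM. It measured 84.1, 94.6, 113 and 95.5 FPKM in the anti-PD1 tumors, 152, 106, 124 and 179 in the α-KG tumors and 82.9, 122, 110 and 102 in the combination tumors. Ier3 was thus the only one of the 10 whose values in both antibody-treated groups lay wholly below those of vehicle.

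The 250 bases before the transcription start of Dusp1, Junb and Fos are shown because these genes had the largest, the second largest and no called change after α-KG. The windows are chr17:26508473-26508722 (minus strand) for Dusp1, chr8:84978749-84978998 (minus strand) for Junb and chr12:85473640-85473889 (plus strand) for Fos, from RefSeq on GRCm38.p6. Capitals mark TGACG on either strand, which is part of the cyclic AMP response element TGACGTCA.
Dusp1: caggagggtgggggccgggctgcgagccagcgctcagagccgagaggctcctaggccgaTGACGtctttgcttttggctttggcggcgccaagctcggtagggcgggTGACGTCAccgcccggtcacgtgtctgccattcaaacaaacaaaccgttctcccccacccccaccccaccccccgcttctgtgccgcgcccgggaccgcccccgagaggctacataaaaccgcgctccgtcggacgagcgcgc
Junb: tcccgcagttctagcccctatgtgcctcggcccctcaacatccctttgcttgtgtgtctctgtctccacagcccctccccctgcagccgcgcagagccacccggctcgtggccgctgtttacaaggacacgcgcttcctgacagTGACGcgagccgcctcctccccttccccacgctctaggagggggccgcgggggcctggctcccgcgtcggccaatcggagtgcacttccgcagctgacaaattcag
Fos: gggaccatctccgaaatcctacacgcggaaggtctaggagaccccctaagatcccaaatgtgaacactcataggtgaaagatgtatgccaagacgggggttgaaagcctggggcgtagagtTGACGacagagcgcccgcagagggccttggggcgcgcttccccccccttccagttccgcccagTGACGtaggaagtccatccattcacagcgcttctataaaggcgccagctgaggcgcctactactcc
Of the 10 genes, 8 were matched in the RefSeq table, all but Egr1 and Ier2. In Fosb and Nr4a1 the start used by the table lies inside the span of the gene. TGACG was in 6 of the 8 windows, those of Fos, Fosb, Junb, Atf3, Dusp1 and Nr4a1, and in 17.8% of all 32851 promoter windows of this length. The full element TGACGTCA was in the Dusp1 window alone, 143 to 136 bases before the start, and in 1.55% of all windows. TGACG on each strand overlaps this element, and the Dusp1 window holds another TGACG 191 to 187 bases before the start. TATAAA was in the Fos window (12.4% of all), GCGNGGGCG, bound by EGR proteins, in the Fosb and Nr4a1 windows (4.70%), and the NF-kappaB motif in those of Fos, Fosb and Ier3 (7.25%). The CArG box of the serum response factor (1.47%), the AP-1 site TGANTCA (6.75%) and the STAT site TTCNNNGAA (7.02%) had no match in these 8 windows. Sites beyond these 250 bases, and any in Egr1 and Ier2, were not searched, so their absence from the genes cannot be concluded. All motifs were searched on both strands. Of the genes whose windows held TGACG, Dusp1, Junb and Atf3 were called after α-KG, and Fos, Fosb and Nr4a1 were called in no comparison. Of those without it, Jun was called in no comparison and Ier3 was called for the combination. A part played by these sites was not tested.

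The first question was whether treatment changed these genes. Across the 4 groups, limma's moderated F test called 6 of the 10, Dusp1, Egr1, Junb, Atf3, Ier3 and Ier2, while 46.8% of all genes tested were called, so that a called gene was common in these tumors. The share of the variance that lay between groups was 92.4% for Dusp1, 88.8% for Egr1 and 81.5% for Junb, between 60.8% and 63.0% for Atf3, Ier3 and Ier2, and between 22.0% and 42.7% for Nr4a1, Fos, Jun and Fosb. The median over all genes tested was 49.8%.

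After α-KG alone, 4 of the 10 rose and none fell, where 15.9% of all genes tested were called, 8.40% higher and 7.53% lower. They were Dusp1, Junb (1.94, standard error 0.27, adjusted p = 0.000126), Egr1 (1.35, standard error 0.16, adjusted p = 2.71e-05) and Atf3 (0.76, standard error 0.19, adjusted p = 0.0142). The Atf3 call was lost when vehicle tumor 3 was left out (adjusted p = 0.0521, the highest of the 16 fits that left out 1 tumor). The groups did not overlap for these 4 genes, Fos and Ier2, all higher, whereas 20.5% of all genes did not overlap. The median difference of the 10 genes was 0.38 and that of all genes tested was -0.04. Nr4a1 (0.45, 95% confidence interval 0.07 to 0.84, adjusted p = 0.105) and Ier2 (0.23, 0.01 to 0.45, adjusted p = 0.145) did not pass.

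After anti-PD1 alone, limma called 0 of the 10 genes at an adjusted p under 0.05, and 0.747% of all genes (0.467% higher, 0.28% lower). The median difference was 0.0012 for the 10 genes and 0.03 for all genes. At an unadjusted p under 0.05 there were 2, Dusp1 (0.76, adjusted p = 0.161) and Ier3 (-0.62, standard error 0.16, adjusted p = 0.0664). Neither gene overlapped between the groups, where 8.61% of all genes did not. The Ier3 difference passed with a pseudocount of 0.1, with tumor medians set equal, and without vehicle tumor 1.

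In the combination tumors, 5 of the 10 were above vehicle and 1 below, where 45.3% of all genes were called, 34.9% higher and 10.5% lower. Dusp1 was higher by 1.06 (standard error 0.26, adjusted p = 0.00440), Junb by 0.99 (0.27, adjusted p = 0.00835), Atf3 by 0.86 (0.19, adjusted p = 0.00272), Egr1 by 0.59 (0.16, adjusted p = 0.00828) and Ier2 by 0.38 (0.10, adjusted p = 0.00835). Ier3 fell by 0.52 (0.16, adjusted p = 0.0142). These 6 genes did not overlap between the groups, where 34.8% of all genes did not. The whole distribution of genes shifted in this comparison, with a median difference of 0.15 on the deposited scale (0.42 for the 10 genes), -0.11 when quantile normalized, -0.16 when tumor medians were set equal and 0.34 when tumors were scaled to the same sum. Dusp1, Junb and Atf3 passed under all of these scalings. With a score of pan-leukocyte marker genes as a covariate none of the 6 genes passed. In that fit Dusp1 was at 0.73 (adjusted p = 0.988), Junb at 0.13 (adjusted p = 0.999) and Atf3 at -0.13 (adjusted p = 0.993). The pan-leukocyte score was 2.35 to 3.78 in the vehicle tumors and 4.44 to 6.04 in the combination tumors. An effect of treatment and a part played by leukocyte RNA thus cannot be told apart there. With a score of neutrophil marker genes as the covariate, Atf3 and Ier3 passed. Dusp1 (0.45, adjusted p = 0.0607), Junb (0.48, adjusted p = 0.151), Egr1 and Ier2 did not. Egr1 lost its call when quantile normalized (0.23, adjusted p = 0.152) or with equal medians (0.27, adjusted p = 0.0863), Ier2 lost it with equal medians (0.07), and Ier3 did not pass after scaling to the same sum (-0.30, adjusted p = 0.162). Over the 10 alternatives other than leaving out a tumor, the adjusted p ran from 0.00166 to 0.988 for Dusp1, from 0.00267 to 0.999 for Junb, from 0.00115 to 0.993 for Atf3, from 0.00300 to 0.999 for Egr1, from 0.00312 to 0.993 for Ier2 and from 0.000794 to 0.988 for Ier3.

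Dusp1, Junb and Egr1, which had changed most after α-KG, were lower in the combination tumors than after α-KG alone. Against α-KG alone, Dusp1 fell by 2.26 (standard error 0.26, adjusted p = 5.33e-05), Junb by 0.95 (0.27, adjusted p = 0.0123), Egr1 by 0.76 (0.16, adjusted p = 0.00249) and Ier3 by 0.41 (0.16, adjusted p = 0.0485), which makes 4 of 10 lower and none higher, where 38.3% of all genes were called, 6.47% lower and 31.8% higher. Dusp1 and Egr1 did not overlap between the groups, and 35.4% of all genes did not. The Ier3 call was lost in 11 of the 16 fits that left out 1 tumor. The median difference was -0.17 for the 10 genes and 0.16 for all genes. Atf3 differed by 0.10 (95% confidence interval -0.31 to 0.51). The interaction, which subtracts the difference made by anti-PD1 in the absence of α-KG from that in its presence, was called for Dusp1 alone (-3.01, standard error 0.37, adjusted p = 0.000143), where 11.1% of all genes were called, 3.13% negative and 7.99% positive. For Junb (-1.09, adjusted p = 0.0729) and Egr1 (-0.64, adjusted p = 0.0765) it did not pass.

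Against anti-PD1 alone, the combination raised 3 of the 10, Junb (0.85, standard error 0.27, adjusted p = 0.0449), Egr1 (0.71, 0.16, adjusted p = 0.0152) and Ier2 (0.37, 0.10, adjusted p = 0.0311), where 15.5% of all genes were called, 14.2% higher and 1.31% lower. Egr1 and Ier2 did not overlap, and 16.6% of all genes did not. The count depended on single tumors. It was 0 when anti-PD1 tumor 1, anti-PD1 tumor 4 or combination tumor 3 was left out, 1 without combination tumor 1, and 5 without anti-PD1 tumor 2. The Junb call was lost in 10 of the 16 fits that left out 1 tumor, those without vehicle tumor 2, 3 or 4, anti-PD1 tumor 1, 3 or 4, α-KG tumor 1 or 3 or combination tumor 1 or 3 (adjusted p up to 0.156), and it held in 2 of the 10 other alternatives (0.0156 to 0.524). The median difference was 0.38 for the 10 genes and 0.12 for all genes. Comparisons that share a control group are not independent of each other.

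**Figure D2:**
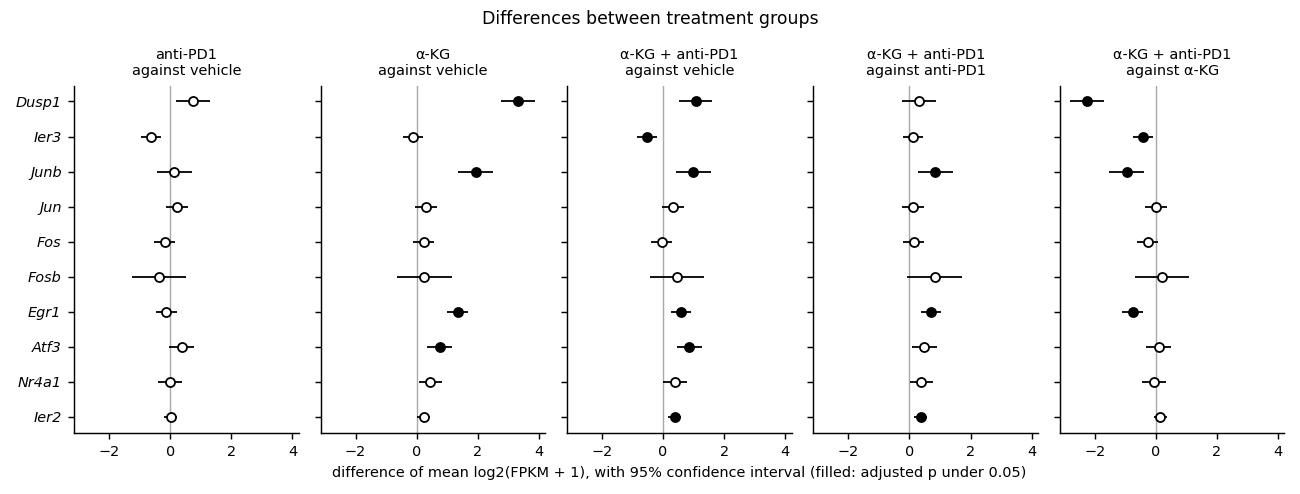
Difference of mean log2(FPKM + 1) between groups (horizontal axis) for each of the 10 genes, 1 panel per comparison. Lines are 95% confidence intervals and filled points have an adjusted p under 0.05, with Dusp1 after α-KG farthest to the right at 3.32.

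The 10 genes were set beside a list of 49 other immediate early and delayed early genes and their targets, of which 47 were in the table and 43 were tested. The list was written with earlier results of these data known, so its counts are descriptions. After α-KG, 22 of the 43 rose and none fell, where 8.40% of all genes rose and 7.53% fell. The count was 9 with the pan-leukocyte score as a covariate, on which the vehicle tumors lie lowest, narrowly below anti-PD1 (3.78 against 3.83 at the edge). It was 0 with the neutrophil score, which separates the α-KG group. Ptgs2, which encodes the prostaglandin synthase COX-2, went from 0.20 to 0.83 FPKM in the vehicle tumors to 33.6 to 88.0 in the α-KG tumors (difference 5.24). Gadd45b, a stress-induced regulator of MAP kinase signaling, rose by 4.15, Nfkbia, the inhibitor of NF-kappaB, by 4.04, and Socs3, a feedback inhibitor of cytokine receptors, by 3.01. The median difference was 0.46.

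Against vehicle, the combination raised 26 of the 43 and lowered none, where 34.9% of all genes were called higher and 10.5% lower, led by Nr4a2 (1.98), a nuclear receptor related to Nr4a1, Ptgs2 (1.86), Cebpb (1.74) and Nfkbia (1.62), with a median of 0.60. The split was 17 higher and 4 lower after quantile normalization and 19 and 7 after median centering, and 0 were called with the pan-leukocyte covariate. Against α-KG alone, the combination had 16 lower, led by Ptgs2 (-3.38), Gadd45b (-2.58), Nfkbia (-2.42) and Csrnp1 (-2.07), and 3 higher, Nr4a2, Egr2 and Sgk1, where 6.47% of all genes were lower and 31.8% higher. Nr4a2 was at 5.03 to 10.6 FPKM in the combination tumors, at 1.33 to 2.69 in the α-KG tumors and at 0.58 to 2.02 in the vehicle tumors, an order other than that of Dusp1. Limma called 0 of the 43 after anti-PD1 alone, with 11 at an unadjusted p under 0.05, and without vehicle tumor 1 it called 5. Against anti-PD1 alone the combination raised 9 and lowered none, led by Btg2 (1.24), where 14.2% of all genes were higher. That count was 1 without anti-PD1 tumor 1 or combination tumor 3, 2 without anti-PD1 tumor 4, 4 without combination tumor 1 and 15 without anti-PD1 tumor 2. It ran from 7 to 17 over the scalings and was 0 in the fit of the 2 groups only and with the pan-leukocyte covariate. The interaction was called for 14, all negative, where 3.13% of all genes were negative. Against α-KG alone and for the interaction, 0 were called with the neutrophil covariate.

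**Figure D3:**
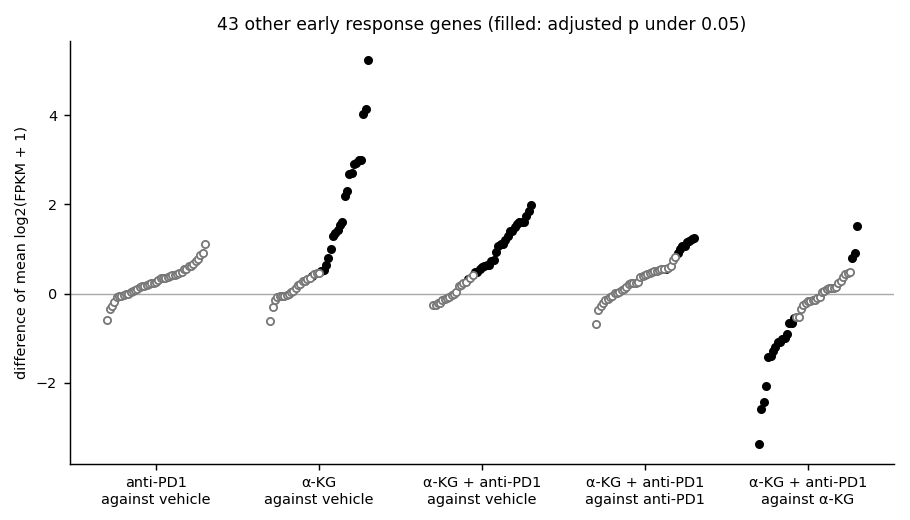
Differences of mean log2(FPKM + 1) (vertical axis) for 43 other early response genes in 5 comparisons (horizontal axis), sorted within each. Filled points have an adjusted p under 0.05, and they reach 5.24 after α-KG and -3.38 for the combination against α-KG alone.

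Kinases and transcription factors upstream of immediate early genes formed a further list. Of 25 tested, 1 rose and 1 fell after α-KG, where 8.40% of all genes rose and 7.53% fell. The median difference was 0.04. Mapkapk2, a kinase downstream of p38 that stabilizes short-lived messenger RNAs, was at 91.7 to 115 FPKM in the α-KG tumors and at 55.2 to 62.1 in the vehicle tumors (difference 0.81, adjusted p = 3.32e-05), and Mapk8, which encodes JNK1, fell by 0.41 (adjusted p = 0.0176). The count of 2 was 1 without vehicle tumor 3 or α-KG tumor 3 and 0 with either marker covariate. In the combination tumors, 7 were higher and 1 lower than in vehicle, led by Mrtfa (0.57), a lower share than the 34.9% of all genes that were called higher. These 8 calls became 14 after median centering (2 higher) and 13 after scaling to the same sum (12 higher). Limma called 0 after anti-PD1, with 1 at an unadjusted p under 0.05. Among 12 heat shock genes, a list of the other stress response that handling can induce, Hspa1a, which encodes the inducible chaperone HSP70, was at 1.51 to 4.30 FPKM in the vehicle tumors, 8.67 to 15.0 in the anti-PD1 tumors, 27.3 to 34.5 in the α-KG tumors and 5.38 to 14.4 in the combination tumors. It was called higher than vehicle in each treated group (1.76, 3.09 and 1.39). With it 1 other heat shock gene was called after anti-PD1 (Hsph1, 0.51, adjusted p = 0.0464), where 0.467% of all genes were called higher. This count of 2 hung on single tumors, being 0 without vehicle tumor 3 or 4 or anti-PD1 tumor 2, 3 or 4, 4 without vehicle tumor 1 and 1 without anti-PD1 tumor 1 or any 1 α-KG tumor. It was also 0 without the filter, in the fit of the 2 groups only, with the replicate block and with either covariate.

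After α-KG, 2 heat shock genes rose beside Hspa1a (Hspa1b and Hsph1, median difference of the list 0.26), where 8.40% of all genes rose. The count of 3 was 5 without α-KG tumor 3, 1 with the pan-leukocyte covariate and 0 with the neutrophil covariate. Hspd1 fell after the combination (-0.42), where 34.9% of all genes were called higher and 10.5% lower. The 2 calls of that comparison, Hspa1a and Hspd1, became 9 after median centering. Against anti-PD1 alone the combination had 4 of the 12 lower, and against α-KG alone 6, where 1.31% and 6.47% of all genes were lower. Over the scalings the first count ran from 1 to 10 and the second from 3 to 12. The first was 1 without anti-PD1 tumor 4 or combination tumor 3 and 2 without anti-PD1 tumor 1, α-KG tumor 1 or combination tumor 1, and the second was 3 without α-KG tumor 1, α-KG tumor 4 or combination tumor 1. The interaction was negative in all heat shock genes called for it, led by Hspa1a (-3.46, limma adjusted p = 8.01e-05), where 3.13% of all genes were called negative. Its count was 6 to 7 of the 12 with 1 tumor left out and 0 to 8 over the other alternatives.

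The second question was whether the genes followed leukocyte markers. The 12 neutrophil markers, all higher after α-KG, summed to 1223 to 3234 FPKM in the α-KG tumors, 30.9 to 45.1 in the vehicle tumors, 43.3 to 141 in the anti-PD1 tumors and 44.6 to 138 in the combination tumors. These markers too were listed with earlier results of these data known. The defining marker Ly6g was listed at 0 in every vehicle tumor and was at 1.57 to 9.16 FPKM in the α-KG tumors, and S100a8 was at 5.60 to 14.1 and 416 to 1044 FPKM. The 14 pan-leukocyte markers summed to 357 to 515 FPKM in the vehicle tumors, 517 to 770 in the anti-PD1, 943 to 1001 in the α-KG and 636 to 1612 in the combination tumors. Most of the vehicle sum was Arhgdib, at 304 to 331 FPKM in the vehicle tumors and called in no comparison. Every other marker of this list was called higher than vehicle after α-KG and in the combination tumors. The sums therefore understate how far those markers differed. Neutrophil markers thus separated the α-KG group from the rest, as Dusp1 and Egr1 did, while the sums of the general leukocyte markers overlapped between the α-KG and combination groups.

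With the pan-leukocyte score as a covariate, the difference between α-KG and vehicle was 3.01 for Dusp1 (standard error 0.48, adjusted p = 0.00298), and 1 of the 10 genes was called. Junb (1.12, adjusted p = 0.201) and Egr1 (0.81, adjusted p = 0.108) kept a positive sign without passing, and Atf3 was at -0.18 (adjusted p = 0.701). This score was 2.35 to 3.78 in the vehicle tumors and 5.16 to 5.24 in the α-KG tumors. In this fit an effect of α-KG and a part played by leukocyte RNA cannot be told apart. With the neutrophil score as a covariate, 0 of the 10 were called for α-KG against vehicle, and Dusp1 was at -0.04 (standard error 0.58, adjusted p = 0.987), Junb at -0.86 (0.83) and Egr1 at 0.22 (0.59). The neutrophil score was 5.08 to 6.22 in the α-KG tumors and 1.48 to 2.92 in all others, so in that fit an effect of α-KG on these genes and a part played by neutrophil RNA cannot be told apart, and its standard errors were larger. Over the 10 alternatives other than leaving out a tumor, the adjusted p ran from 1.73e-07 to 0.987 for Dusp1, 6.60e-05 to 0.727 for Junb, 3.44e-06 to 0.918 for Egr1 and 0.00179 to 0.969 for Atf3. Against α-KG alone, the differences of the combination in Dusp1, Junb and Egr1 were all called with the pan-leukocyte covariate (-2.28, -0.999 and -0.79) and none was with the neutrophil covariate.

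Within groups, each gene was compared with 4 scores (pan-leukocyte, neutrophil, fibroblast and heat shock) as deviations from the group means over 16 tumors, with an exact two-sided permutation test within groups and adjustment over 40 relations. By Pearson's r 0 relations passed, with 8 at an unadjusted p under 0.05, and by Spearman's rho 4 passed. Dusp1 had the highest correlation with the neutrophil score (r = 0.858, exact permutation p = 0.00131, adjusted p = 0.0522, rho = 0.874, exact permutation p = 0.00139, adjusted p = 0.0232). Without anti-PD1 tumor 2 and α-KG tumor 2, the tumors farthest from the median of that score, r was 0.784 (adjusted p = 0.248) and rho 0.780 (adjusted p = 0.182). In the vehicle and the α-KG group, Dusp1 put the 4 tumors in the same order as the neutrophil score did, which was noticed after the values were seen. Nr4a1 was next (r = 0.807, exact permutation p = 0.00302, adjusted p = 0.0603, rho = 0.832, exact permutation p = 0.00174, adjusted p = 0.0232), and its r fell to 0.671 (adjusted p = 0.412) without the same tumors. Junb had an r of 0.685 with this score (exact permutation p = 0.0291, adjusted p = 0.167). Since the tumors fell into separate ranges of this score, no r over all tumors is given, and only a count with the tumors pooled appears below.

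Atf3 went with the pan-leukocyte score (within groups r = 0.795, exact permutation p = 0.00491, adjusted p = 0.0655, rho = 0.809, exact permutation p = 0.00345, adjusted p = 0.0345). Without combination tumor 4 and vehicle tumor 1 its r was 0.820 (adjusted p = 0.144) and its rho 0.864 (adjusted p = 0.0521), so that its call was lost. On this score the vehicle tumors (2.35 to 3.78) lay below all others. The combination range (4.44 to 6.04) held that of α-KG (5.16 to 5.24) and overlapped that of anti-PD1 (3.83 to 4.65). Since group levels differed, no r over all tumors is given here either. Jun had an r of 0.594 (exact permutation p = 0.00961, adjusted p = 0.0869) and a rho of 0.741 (exact permutation p = 0.00150, adjusted p = 0.0232) with the pan-leukocyte score, and without the same tumors an r of 0.522 (adjusted p = 0.301) and a rho of 0.736 (adjusted p = 0.0521), which did not pass. The calls of Atf3 and Jun by rho were also lost after quantile normalization (adjusted p = 0.166 for each) and median centering (0.282 and 0.338). Of the 16 fits that left out 1 tumor, the call by rho was lost in 8 for Atf3, 7 for Jun, 6 for Dusp1 and 7 for Nr4a1, with adjusted p up to 0.270. Without anti-PD1 tumor 1 or 2, α-KG tumor 2 or 4, or combination tumor 2 or 4, all 4 were lost. Dusp1 had an r of 0.197 within groups with the pan-leukocyte score (exact permutation p = 0.501, adjusted p = 0.835). Jun was also the gene nearest to the heat shock score (r = 0.700, exact permutation p = 0.0109, adjusted p = 0.0869, rho = 0.635, exact permutation p = 0.0302, adjusted p = 0.180), with an r of 0.571 without α-KG tumor 3 and vehicle tumor 3. No gene passed with the fibroblast score, where r lay between -0.220 and 0.209. Vehicle tumor 4 stood apart on this score, at 2.94 against 0.87 to 1.20 in the other vehicle tumors. Without vehicle tumors 4 and 2, r lay between -0.568 (Nr4a1, exact permutation p = 0.0369, adjusted p = 0.248) and 0.238 (Atf3), and no gene passed.

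**Figure D4:**
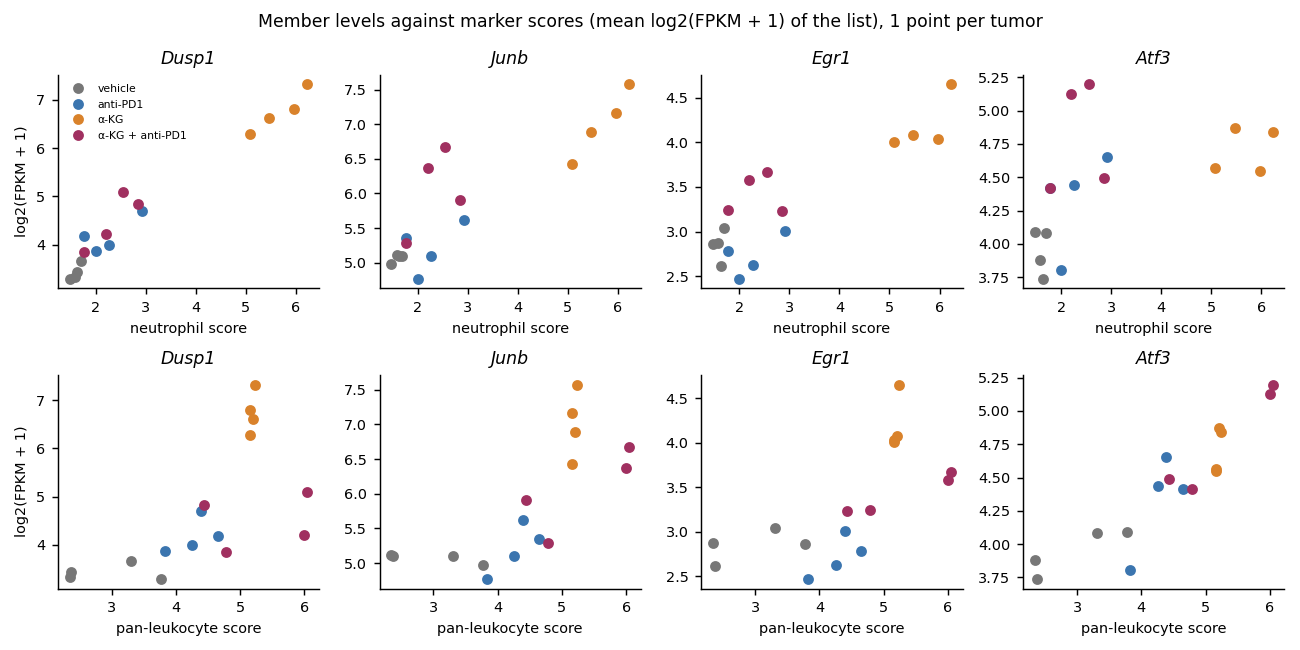
log2(FPKM + 1) of Dusp1, Junb, Egr1 and Atf3 (vertical axes) against the neutrophil score (upper row) and the pan-leukocyte score (lower row), 1 point per tumor, colored by group. The α-KG tumors lie apart on the neutrophil axis at 5.08 to 6.22, and the groups overlap only in part on the pan-leukocyte axis.

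The third question was whether single tumors carried the genes together. Anti-PD1 tumor 2 was the highest of its group in 9 of the 10 genes, all but Ier3, and anti-PD1 tumor 1 was the lowest in 8. Over all genes tested, tumor 2 was the highest of its group in 41.3% and tumor 1 the lowest in 49.5%, so both also stood out in general. α-KG tumor 4 was the highest of its group in 8 of the 10 (31.8% of all genes) and α-KG tumor 2 the lowest in 5 (26.3%). Combination tumor 1 was the highest in 7 of the 10 (27.0% of all genes), and tumor 2 of that group was the lowest in 5 (25.5%). Among the vehicle tumors, tumor 2 was the highest in 4 of the 10 (22.2% of all genes) and tumor 1 the lowest in 5 (26.5%), while over all genes tumor 1 was the highest in 44.5%. The 3 tumors that were highest in most of the 10 genes had neutrophil scores of 2.92, 6.22 and 2.55, the highest of the anti-PD1 group, the highest of the α-KG group and the second highest of the combination group. Their heat shock scores were 6.88, 6.91 and 6.24, in turn the second highest, the second highest and the lowest of their groups. Their pan-leukocyte scores were 4.39, 5.24 and 6.04, in turn the second highest, the highest and the highest of their groups. The part of neutrophil RNA and that of tissue handling in these tumors was not tested.

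**Figure D5:**
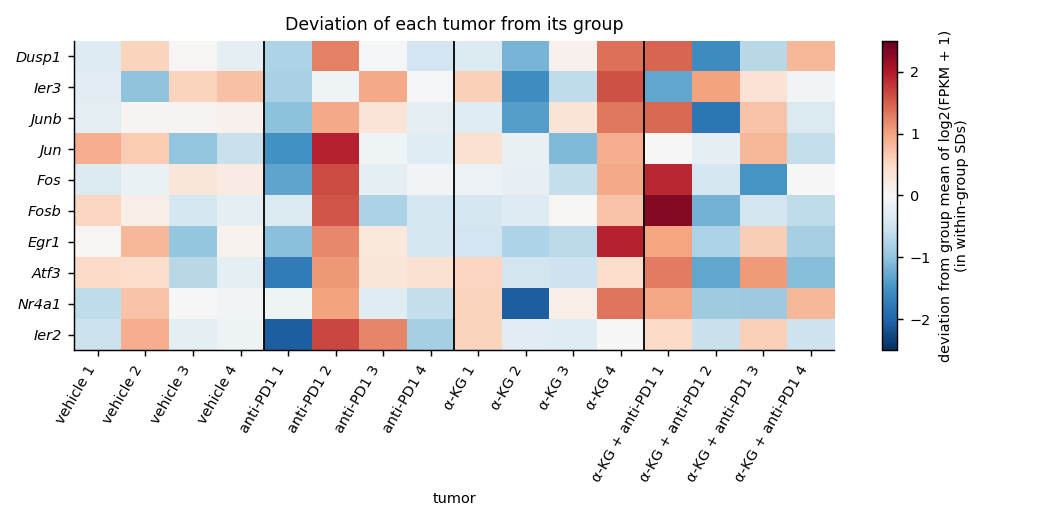
Deviation of each tumor (columns) from its group mean of log2(FPKM + 1) for the 10 genes (rows), in units of the within-group SD, with vertical lines between groups. Anti-PD1 tumor 2, α-KG tumor 4 and combination tumor 1 are mostly red, and Ier3 departs from the other genes.

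Most of the genes moved together within groups, and Ier3 did not move with the others. Of the 45 pairs of the 10 genes, 41 had a positive Pearson r of deviations from group means over 16 tumors and 24 had an r over 0.5, with a median of 0.538, while the median over all pairs of tested genes was 0.0739. These values are descriptions, since the tumors of a pair are shared and any shift of a whole tumor enters both genes. Dusp1 with Nr4a1 (0.871), Junb with Dusp1 (0.823) and Junb with Egr1 (0.789) were the closest pairs. Fos and Fosb, partners of JUN proteins in AP-1, had an r of 0.760. The pairs of Ier3 had values between -0.357 (Fosb) and 0.190 (Egr1). Among other genes with a mean of at least 5 FPKM, those most like the mean of the 10 over the 16 tumors were Cyth1 (r = 0.923), an exchange factor for ARF proteins, Ttc39b (0.913), Osbpl9 (0.911), an oxysterol-binding protein, Trappc10 (0.902), a subunit of a vesicle trafficking complex, and Osgin1 (0.894), an oxidative stress response gene. None of these 5 is in the list of early response genes. The 43 genes of that list had a median r of 0.676 with the mean of the 10, the neutrophil markers 0.528, the pan-leukocyte markers 0.463, the heat shock genes 0.169 and all genes tested 0.215. The 25 upstream kinases and transcription factors, at 0.449, were close to the pan-leukocyte markers. It was 0.290 for 7 macrophage markers and 0.240 for 7 T cell markers.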

How the data were processed

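RNA from 16 B16F10 tumors was measured by poly(A) RNA-seq with dUTP-marked second strands on a DNBSEQ instrument. The authors deposited 1 table of FPKM values with 2 decimals, and all 16 columns were used. The submitters' processing notes name HISAT, Bowtie2 and mm10. The program that computed FPKM, the annotation and any filter are not given in the sources used here. FPKM depends on the composition of the library, so a few abundant genes can move all others. Depth is unknown, and the number of tumors limits the precision. The 10 genes and all lists were chosen with earlier results of these data known.

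Groups were taken from the labels. Values were transformed to log2(FPKM + 1), which understates changes of low genes, and fitted with limma 3.58.1 (R 4.3.3, 1 mean per group, variance trend) over genes that reached 0.5 FPKM in 4 or more tumors. Contrasts were two-sided, and calls needed a Benjamini-Hochberg adjusted p under 0.05. The fits were checked on simulated data with 200 genes changed and independent noise for each gene, so without shifts shared by a whole tumor. There 92% of genes changed by 1 and 97% of those changed by 2 on the log2 scale were called. Of the calls, 6.9% fell on unchanged genes. Correlations used 331776 rearrangements within groups (Python 3.11.15, scipy 1.17.1). Alternatives were a pseudocount of 0.1, no filter, quantile normalization, median centering, scaling to the same sum with and without 12 hemoglobin genes, fits of 2 groups only, a replicate block, marker covariates and leaving out each tumor. Named genes were the 10 genes, at most 4 called genes of a list with the largest differences, the 5 genes most alike and the tumors highest or lowest in most of the 10.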

Additional observations from a re-analysis of the deposited data

Results flagged for a closer look

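With 4 tumors per group, a tumor was singled out where its gap to the nearest other tumor took up more of the range of the group than Dixon's 95% limit allows. This held in 4 of the 40 combinations of gene and group, where chance gives about 1 in 20. Fosb was at 3.83 FPKM in anti-PD1 tumor 2, against 0.63 to 0.99 in the rest of that group, and at 10.85 FPKM in α-KG + anti-PD1 tumor 1, against 1.40 to 2.33. Egr1 was at 24.15 FPKM in α-KG tumor 4, against 15.1 to 15.9. Junb was at 30.53 FPKM in vehicle tumor 1, against 33.3 to 33.7, a small step in a tight group. The first 3 values belong to the tumors that were the highest of their groups in most of the 10 genes.

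The effect of anti-PD1 on Dusp1 differed with and without α-KG by an interaction of -3.01 on the log2(FPKM + 1) scale (standard error 0.37, limma adjusted p = 0.000143). It was 0.76 above vehicle without α-KG and -2.26 with it. With the neutrophil score as a covariate the interaction was 0.27 (standard error 0.58, adjusted p = 0.906), and with each tumor left out it stayed between -3.21 and -2.80.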

How the results depend on the processing

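Of the 18 called differences of the 10 genes over the 5 comparisons and the interaction, 17 kept their direction and passed with a pseudocount of 0.1, 16 without the filter, 14 after quantile normalization, 14 after median centering, 16 after scaling to the same sum, 16 when hemoglobin was left out of that sum, and 13 of 17 in fits of the 2 groups only. With the pan-leukocyte covariate 6 did, and with the neutrophil covariate 5. Of the 42 uncalled differences, 9 changed sign after quantile normalization, 9 after centering, 5 after scaling to the same sum, 2 without hemoglobin, 15 with the pan-leukocyte and 17 with the neutrophil covariate.

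The number of the 10 genes called after anti-PD1 was 0 and became 1 with a pseudocount of 0.1 and after median centering. For α-KG against vehicle, 4 became 1 with the pan-leukocyte and 0 with the neutrophil covariate, and for the combination against vehicle 6 became 0 and 2. For the combination against anti-PD1 alone, 3 became 1 after quantile normalization and after median centering, 5 after scaling to the same sum, and 0 in the fit of the 2 groups and with the pan-leukocyte covariate. Against α-KG alone, 4 became 0 with the neutrophil covariate. The interaction count of 1 became 2 after quantile normalization, 3 after centering and 0 with the neutrophil covariate. Signs reversed with the neutrophil covariate for α-KG against vehicle in Junb (-0.86), Dusp1 (-0.042) and Atf3 (-0.12), for the combination against α-KG in Junb (1.34), Egr1 (0.16) and Dusp1 (0.49) and for the Dusp1 interaction (0.27), and with the pan-leukocyte covariate for Atf3 in α-KG (-0.18) and combination (-0.13) tumors against vehicle. None of these 9 values passed. The neutrophil score separates the α-KG group by a wide margin. On the pan-leukocyte score the vehicle group lies lowest, but its highest tumor (3.78) is close to the lowest anti-PD1 tumor (3.83). The cause of the other changes was not tested.

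The number of genes correlated with the pan-leukocyte score within groups, 0 by Pearson's r, was 4 after scaling to the same sum, 1 when hemoglobin was left out of it and 6 with the 16 tumors pooled, where groups differ. By Spearman's rho, the calls of Atf3 and Jun with this score were lost after quantile normalization and median centering, and those of Dusp1 and Nr4a1 with the neutrophil score passed under both. With the neutrophil score, 0 became 2 with a pseudocount of 0.1, after quantile normalization, centering and both scalings to a sum, and 4 with the tumors pooled. With the heat shock score, 0 became 2 after scaling to the same sum and 1 with the tumors pooled. All counts with the tumors pooled include differences between the groups.

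With each tumor left out in turn, counts ranged from 0 to 1 for anti-PD1 against vehicle, 0 to 5 for the combination against anti-PD1, 1 to 2 for the interaction, 0 to 2 for the pan-leukocyte, 0 to 4 for the neutrophil and 0 to 1 for the heat shock correlations. The first reached 1 without vehicle tumor 1, and the interaction reached 2 when α-KG tumor 2 or combination tumor 1 was omitted. The pan-leukocyte count was 2 without anti-PD1 tumor 3 and 1 without combination tumor 4. The neutrophil count was 4 without combination tumor 4, 2 without anti-PD1 tumor 3 or 4 and 1 without combination tumor 1. The heat shock count was 1 without anti-PD1 tumor 3.

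The replicate numbers showed no clear pairing of the tumors, though these correlations cannot exclude one. Deviations of same-numbered tumors had correlations from -0.642 to 0.411, with 9 of 24 over 0.1, against 21 of 72 for tumors with other numbers. With the replicate number as a block, 16 of the 18 called differences passed. The block fit did not call Junb for the combination against anti-PD1 (adjusted p = 0.0593) or Ier3 for the combination against α-KG (adjusted p = 0.0521).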
